A study of Mus musculus with 16 samples.

Results

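The expression of 10 genes of bile acid synthesis, conjugation, transport and feedback was examined in the liver of conventional (Conv) mice after transfer of gut microbiota. The genes are Cyp7a1, Cyp8b1, Cyp27a1, Cyp7b1, Slc27a5, Baat, Nr0b2, Fgfr4, Abcb11 and Slc10a1. They were found by their gene name among the 37074 gene names of an Agilent mouse microarray, on which they have 16 probes, and all 10 were among the 20404 genes whose probes passed a filter on dim signals. The study asked whether the caecal microbiota of obese mice changes the metabolism of recipients that never received antibiotics. Its arrays held 16 livers of male C57BL/6 mice, 1 array per mouse. The 6 Conv + PBS mice received the vehicle, reduced PBS, and their labels call them not transplanted. The 5 Conv + LM mice received caecal content of lean mice (LM stands for lean microbiota) and the 5 Conv + OM(HFD) mice that of mice made obese by a high-fat diet (OM stands for obese microbiota). All recipients ate normal chow for 4 weeks from the age of 6 weeks, were 10 weeks old when sampled and were fasted before sampling. Caecal content was pooled from several donors, so that mice of a transplanted group share their inoculum. Mice were housed 5 or 6 to a cage and the cage was not a label, so that cage and transfer cannot be told apart.

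Bile acids are made from cholesterol in hepatocytes. The classic pathway starts with Cyp7a1 and branches through Cyp8b1 towards cholic acid, and an acidic pathway runs through Cyp27a1 and Cyp7b1. The acids are joined to CoA by Slc27a5 and to taurine or glycine by Baat, are pumped into bile by Abcb11, return from the gut with the portal blood and are taken up again by Slc10a1. Bile acids that activate the nuclear receptor FXR (gene Nr1h4) induce Nr0b2, which encodes the repressor SHP, and Abcb11. From the ileum, FXR acts through the hormone FGF15 on Fgfr4 and its partner Klb in the liver, and both routes are known to lower transcription of Cyp7a1. Cyp7a1 is also known for a daily rhythm and is a target of the clock output factor Dbp. The gut microbiota bears on this circuit because bacteria deconjugate and dehydroxylate bile acids.

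Every level below is log2 of the background-subtracted brightness of a probe minus the 75th percentile of its array, so that 0 is a probe brighter than 75% of the array, and levels of different probes cannot be set against each other. The 75th percentile ranged from 223.1 to 323.7 intensity units, no spot was saturated, and the precision is limited by the number of arrays. The arrays lay on 2 slides, each with all 3 groups (3 Conv + PBS mice on either, 2 of the Conv + LM mice on slide 1 and 3 on slide 2, with 3 and 2 from the Conv + OM(HFD) group). All 7 hepatocyte markers passed the filter, and their mean level lay between 8.75 and 9.17 in all mice. Conv + PBS mouse 1 and Conv + OM(HFD) mouse 25 stood apart in the mean of 4 neutrophil markers (1.79 and 1.55, against −3.32 to −1.93 in the other mice), and values without these mice are given where they differ. The same mice had the highest mean of 6 Kupffer cell markers (3.70 and 2.48, against 0.75 to 1.82). Conv + LM mouse 15 stood apart in the mean of 3 adipocyte markers (1.07, against −3.72 to −1.17), while the adipocyte markers Adipoq and Retn did not pass the filter. Of 5 ileal markers 3 passed, with a mean level of 0.96 to 1.73, and Fabp6 and Cdx2 did not. Of 5 pancreatic markers 2 passed, with a mean level of −0.13 to 0.77, and Cpa1, Prss2 and Pnlip did not. At an unadjusted p under 0.05 in limma, 2 of 6 stellate cell markers, 1 of 5 sinusoidal endothelial markers and 1 of 7 bile duct markers were lower in Conv + OM(HFD) mice than with the vehicle, beside 3.25% of all genes called in either direction. Each list also held differences of the other sign, 2 of 6, 1 of 5 and 2 of 7, and 1 stellate marker was lower with the obese than with the lean microbiota (unadjusted p = 0.0177 in limma). The part of these cells in the results was not tested. In whole liver, fewer hepatocytes and less RNA per hepatocyte cannot be told apart.

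The genes differed in how much they varied between mice. Cyp7a1 had a standard deviation within groups of 0.98 log2 units, larger than in 97.9% of the genes tested, and the highest mouse was 10.1-fold above the lowest. Nr0b2 followed with 0.57 (88.6%), Cyp8b1 with 0.56 (87.8%) and Cyp7b1 with 0.48 (83.7%). At the other end were Slc27a5 with 0.11 (4.6%), Fgfr4 with 0.11 (4.2%) and Slc10a1 with 0.10 (3.1%). Cyp27a1 (0.31, 65.5%), Abcb11 (0.21, 42.2%) and Baat (0.17, 29%) lay between. Thus Cyp7a1, Cyp8b1, Cyp7b1 and the repressor gene varied widely among mice of the same group, and the CoA ligase, the FGF15 receptor and the uptake transporter varied little.

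**Figure D1:**
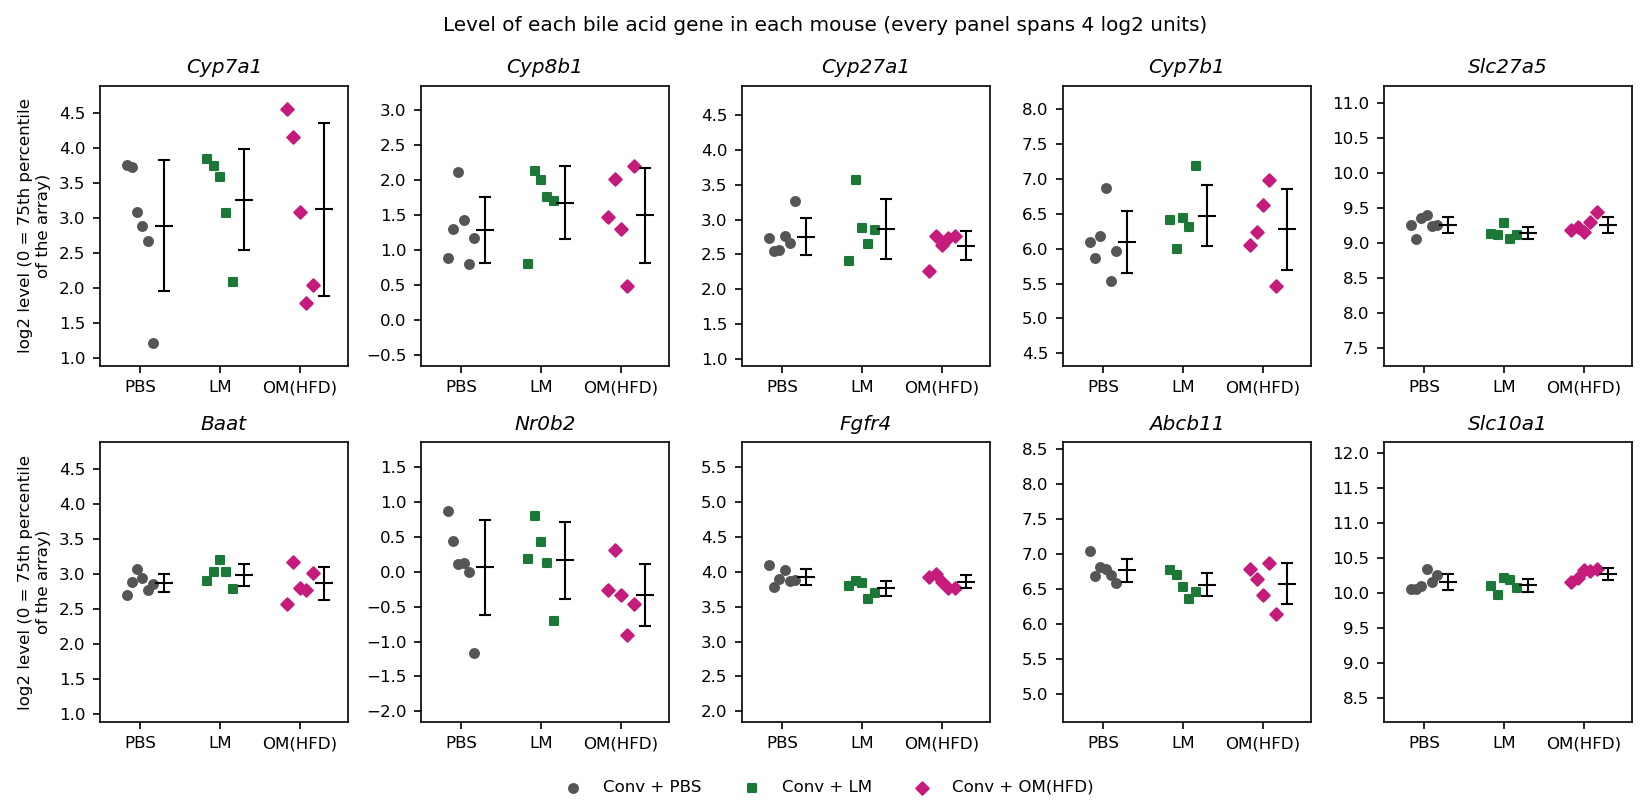
Level of each gene in each mouse (points) with the mean ± SD of the group (black bars), on the log2 scale with 0 at the 75th percentile of the array. Cyp7a1 spans 1.22 to 4.56 and Slc10a1 only 9.97 to 10.34, and the groups overlap in every panel.

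Cyp7a1, the rate-limiting enzyme of the classic pathway, was read by a probe at chr4:6193456-6193515 (mm9). Its level in Conv + PBS mice was 1.22 at the lowest, 2.99 at the median and 3.76 at the highest. The Conv + LM mice had 3.85, 3.74, 3.59, 3.07 and 2.08, and the Conv + OM(HFD) mice had 4.56, 4.16, 3.09, 2.05 and 1.78. Each group thus held mice with high and with low Cyp7a1, and the groups overlapped throughout. Means ± SD were 2.89 ± 0.93 (n = 6), 3.27 ± 0.73 (n = 5) and 3.13 ± 1.23 (n = 5). Conv + OM(HFD) minus Conv + PBS came to 0.23 (SE 0.55, 95% interval −0.94 to 1.40), which allows anything from 0.523-fold to 2.64-fold, with an adjusted p of 1.0 in limma. A second probe, well above background on 13 arrays, gave −0.23 for Conv + LM minus Conv + PBS (SE 0.64), where the main probe gave 0.37 (SE 0.55).

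Cyp8b1, the sterol 12-alpha-hydroxylase that sets the share of cholic acid, was read at chr9:121824595-121824654 (mm9). Conv + PBS mice ran from 0.81 over a median of 1.25 to 2.12. Conv + LM mice had 2.13, 2.01, 1.76, 1.70 and 0.81, and Conv + OM(HFD) mice had 2.21, 2.02, 1.47, 1.3 and 0.49. The lowest mouse of the Conv + LM group was level with the lowest Conv + PBS mouse, and 4 of its 5 mice lay above the Conv + PBS median. Conv + LM minus Conv + PBS was 0.39 (SE 0.31, 95% interval −0.28 to 1.06, limma adjusted p = 0.998).

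In the acidic pathway, Cyp27a1, the mitochondrial sterol 27-hydroxylase, lay between 2.26 and 3.56 over all mice, and Cyp7b1, the oxysterol 7-alpha-hydroxylase, between 5.47 and 7.18. Cyp27a1 had means ± SD of 2.76 ± 0.26 in Conv + PBS (n = 6), 2.87 ± 0.43 in Conv + LM (n = 5) and 2.63 ± 0.21 in Conv + OM(HFD) mice (n = 5). None of the 5 Conv + OM(HFD) mice reached the Conv + LM median of Cyp27a1, with a difference of −0.24 (SE 0.19, limma adjusted p = 0.999). Cyp7b1 had means ± SD of 6.09 ± 0.44 (n = 6), 6.47 ± 0.43 (n = 5) and 6.27 ± 0.57 (n = 5) in the same order. Conv + LM minus Conv + PBS was 0.38 for Cyp7b1 (SE 0.27, 95% interval −0.20 to 0.96, limma adjusted p = 0.998), with 4 of 5 mice above the Conv + PBS median.

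The conjugating enzymes had narrow intervals. Slc27a5 (bile acyl-CoA synthetase) had a mean of 9.26 in both Conv + PBS and Conv + OM(HFD) mice, and the 95% interval of their difference, was 0.891-fold to 1.12-fold. In Conv + LM mice its mean was 9.14, a difference of −0.12 from Conv + PBS mice (SE 0.08, limma adjusted p = 0.998). Baat, which adds taurine or glycine, had means of 2.87 in Conv + PBS, 2.98 in Conv + LM and 2.86 in Conv + OM(HFD) mice. Its Conv + OM(HFD) to Conv + PBS ratio lay between 0.848-fold and 1.17-fold (95% interval). Its second probe turned direction for Conv + LM minus Conv + PBS (−0.12, SE 0.12, against 0.12, SE 0.11) and for Conv + OM(HFD) minus Conv + LM (0.04, SE 0.13, against −0.12, SE 0.11).

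Nr0b2, the gene of the repressor SHP, was read at chr4:133109694-133109753 (mm9). Conv + PBS mice ran from −1.16 over a median of 0.12 to 0.86. Conv + LM mice had 0.79, 0.42, 0.18, 0.12 and −0.71, and Conv + OM(HFD) mice had 0.31, −0.27, −0.33, −0.47 and −0.91. The Conv + OM(HFD) group sat lowest, with 4 of its 5 mice below the Conv + PBS median, yet inside the range of the Conv + PBS mice. The differences were −0.40 from Conv + PBS (SE 0.32, 95% interval −1.08 to 0.29, limma adjusted p = 1.0) and −0.49 from Conv + LM mice (SE 0.34, 95% interval −1.21 to 0.22, limma adjusted p = 0.999). On slide 1 these were −0.54 and −0.84 and on slide 2 −0.24 and −0.25, with 2 or 3 mice a group. A single mouse weighed on the first of them. Without Conv + PBS mouse 6, the lowest of all, it was −0.64 (unadjusted p = 0.031 in limma), and without Conv + LM mouse 17 the second was −0.71 (unadjusted p = 0.0469 in limma).

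The 250 bases before the RefSeq start of Nr0b2 (GRCm38.p6, chr4:133553126-133553375, plus strand) are shown because Nr0b2 is the repressor of the circuit and the gene that moved with Cyp7a1 across mice, described further on. Those of Cyp8b1 (chr9:121916306-121916555, minus strand) are shown beside them as the other widely varying enzyme of the classic pathway, and those of Abcb11 (chr2:69342617-69342866, minus strand) because it is a direct FXR target. RefSeq upstream sequences were at hand for 6 of the 10 genes, and Cyp7a1, Cyp7b1, Baat and Slc27a5 were without an entry. Capitals mark matches on either strand to CAAGG (core of the site of LRH-1, encoded by Nr5a2), CAAAGTCCA (a site of HNF4A type), CACGTG (the E-box bound by clock factors) and IR-1 (an inverted repeat of half-sites around a single spacer base, the FXR type), which were chosen after reading these sequences. All run 5′ to 3′ towards the start of transcription.
Nr0b2: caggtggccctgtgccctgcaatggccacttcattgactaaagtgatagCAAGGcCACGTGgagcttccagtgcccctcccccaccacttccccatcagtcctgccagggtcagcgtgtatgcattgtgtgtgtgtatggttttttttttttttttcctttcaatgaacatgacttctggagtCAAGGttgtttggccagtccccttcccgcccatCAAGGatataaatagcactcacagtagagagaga
Cyp8b1: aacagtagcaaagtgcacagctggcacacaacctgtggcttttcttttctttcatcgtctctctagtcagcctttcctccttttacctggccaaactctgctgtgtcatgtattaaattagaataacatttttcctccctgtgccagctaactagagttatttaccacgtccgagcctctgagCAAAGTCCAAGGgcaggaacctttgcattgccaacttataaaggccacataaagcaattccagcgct
Abcb11: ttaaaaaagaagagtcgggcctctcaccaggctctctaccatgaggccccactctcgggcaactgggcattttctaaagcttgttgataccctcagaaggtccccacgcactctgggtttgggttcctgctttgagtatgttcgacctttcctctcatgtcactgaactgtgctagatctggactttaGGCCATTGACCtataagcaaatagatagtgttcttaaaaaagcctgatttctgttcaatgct

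Nr0b2 held CAAGG beginning 201, 67 and 34 bases before the start and an E-box at 195 bases, beside the first of them. Cyp8b1 held CAAAGTCCA at 67 bases, overlapping a CAAGG at 60 bases. Abcb11 held GGCCATTGACC, a match to the FXR type, at 62 bases and none of the other motifs. Over 32851 upstream sequences of the same length in the RefSeq table, CAAGG occurred in 46.0%, CACGTG in 6.02%, the IR-1 motif in 0.575% and CAAAGTCCA in 0.384%. Of the sequences not shown, Fgfr4 held CAAGG at 218 and, on the opposite strand, at 201 bases, and Slc10a1 held it on the opposite strand at 162 bases. Both of these genes varied little between mice. These matches describe letters and were not measured as binding.

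Fgfr4 encodes the receptor of FGF15 on hepatocytes. Conv + PBS mice ran from 3.78 over a median of 3.89 to 4.09. Conv + LM mice had 3.87, 3.84, 3.79, 3.70 and 3.61 and Conv + OM(HFD) mice 3.97, 3.92, 3.85, 3.77 and 3.76. All 5 Conv + LM mice lay below the Conv + PBS median, though their range overlapped that of the Conv + PBS mice. The difference was −0.16 (0.896-fold, SE 0.08, 95% interval −0.32 to 0.01), with an unadjusted p of 0.0592 and an adjusted p of 0.998 in limma and p = 0.0433 in the exact two-sided permutation test of this gene alone. It was −0.28 on slide 2 and −0.01 on slide 1. Of its other probes, A_55_P2120055 gave −0.22 (SE 0.08) and A_52_P144363 gave −0.07 (SE 0.12).

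Abcb11, the bile salt export pump, was read at chr2:69076390-69076449 (mm9). Conv + PBS mice ran from 6.58 over a median of 6.75 to 7.05. Conv + LM mice had 6.77, 6.70, 6.53, 6.46 and 6.36, and Conv + OM(HFD) mice had 6.88, 6.78, 6.65, 6.42 and 6.15. Both transplanted groups reached lower than any Conv + PBS mouse, and both overlapped with them. The differences from Conv + PBS were −0.20 in Conv + LM (SE 0.13, 4 of 5 mice below the Conv + PBS median, limma adjusted p = 0.998) and −0.19 in Conv + OM(HFD) mice (SE 0.13, 3 of 5 mice, limma adjusted p = 1.0). On slide 1 they were 0.01 and −0.28, and on slide 2 −0.36 and −0.04.

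Slc10a1 (NTCP), the transporter that takes conjugated bile acids up from the blood, varied little. Conv + PBS mice ran from 10.05 over a median of 10.12 to 10.34. Conv + LM mice had 10.21, 10.19, 10.10, 10.07 and 9.97, and Conv + OM(HFD) mice had 10.34, 10.33, 10.32, 10.21 and 10.15. All 5 Conv + OM(HFD) mice lay above the Conv + LM median and their lower mice overlapped with the upper Conv + LM mice. Conv + OM(HFD) minus Conv + LM was 0.16 (1.12-fold, SE 0.08), with an unadjusted p of 0.0555 and an adjusted p of 0.999 in limma and p = 0.0317 in the exact two-sided permutation test of this gene alone. It was 0.24 on slide 1 and 0.11 on slide 2. In limma it passed the unadjusted threshold, though not after adjustment, with the slide as a block and without both mice with high neutrophil markers. The second probe, A_66_P133814, which lies in another RefSeq transcript of the gene, gave −0.06 (SE 0.12), so the difference rests on the brighter probe.

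Counted together, limma gave 0 of the 10 genes an unadjusted p under 0.05 in each comparison. Over all 20404 genes the share was 3.25% for Conv + OM(HFD) vs. Conv + PBS, 3.88% for Conv + LM vs. Conv + PBS and 2.67% for Conv + OM(HFD) vs. Conv + LM. After adjustment over all genes, 0 of the 10 and 0 of 20404 genes (0.0%) were under 0.05 in limma in each comparison. The exact permutation test put 0, 1 (Fgfr4) and 1 (Slc10a1) of the 10 under 0.05 in these comparisons, against 3.15%, 3.88% and 2.98% of the 20328 genes with a value on all arrays. Between no 2 groups was any of the 10 genes free of overlap, which held for 0.226%, 0.28% and 0.428% of these 20328 genes. The median difference of the 10 genes was 0.00 for Conv + OM(HFD) vs. Conv + PBS, 0.10 for Conv + LM vs. Conv + PBS and −0.13 for Conv + OM(HFD) vs. Conv + LM, while that of all genes was 0.00, −0.01 and 0.00. The first and second comparison share the Conv + PBS mice. Of the 30 differences, which are not independent because the comparisons share groups, 21 had the same sign on both slides. The share over all genes was not computed, so this count cannot be set against it.

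**Figure D2:**
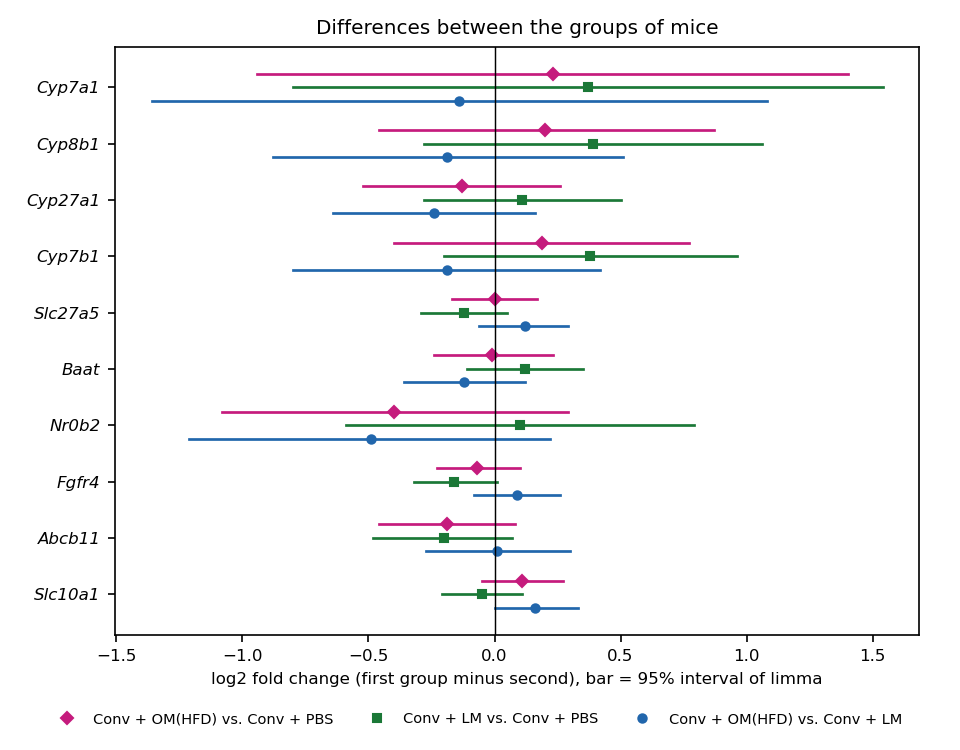
Difference between groups for each gene on the log2 scale (points, first group minus second) with the 95% interval of limma (bars). Every interval reaches 0, from wide ones for Cyp7a1 (−1.36 to 1.08 for Conv + OM(HFD) vs. Conv + LM) to narrow ones such as Slc10a1 (−0.05 to 0.27).

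The rest of the bile acid pathway was read from a list of 45 genes, of which 42 passed the filter. Fgf15, the ileal hormone gene, Slc51a, a subunit of the basolateral bile acid exporter, and Ch25h did not pass. With the lean microbiota, 3 of the 42 had an unadjusted p under 0.05 in limma against Conv + PBS mice, all higher, beside 3.88% of all genes. With the obese microbiota there was 1, higher (3.25% of all genes), and between the transplanted groups there was 1, lower in Conv + OM(HFD) mice (2.67% of all genes), so that a single call among 42 is near the share of all genes. The median difference of the 42 genes was 0.00 for Conv + LM vs. Conv + PBS, 0.04 for Conv + OM(HFD) vs. Conv + PBS and 0.02 for Conv + OM(HFD) vs. Conv + LM. None passed after adjustment over all genes.

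Acox2, the peroxisomal oxidase that shortens the side chain of bile acid precursors, was 5.97 to 6.48 in Conv + PBS mice (median 6.20) and 6.92, 6.81, 6.58, 6.53 and 6.48 in Conv + LM mice. All 5 Conv + LM mice lay above the Conv + PBS median, and the lowest of them met the highest Conv + PBS mouse. The difference was 0.45 (1.36-fold, SE 0.13, 95% interval 0.18 to 0.72), with an unadjusted p of 0.00305 and an adjusted p of 0.998 in limma and p = 0.00649 in the exact permutation test. Conv + OM(HFD) mice had 6.27 to 6.75, and their difference from Conv + PBS was 0.25 (SE 0.13).

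Hsd3b7, which follows Cyp7a1 in the classic pathway, was 6.34 to 6.85 in Conv + PBS mice (median 6.74), 7.45, 7.17, 7.03, 6.85 and 6.78 in Conv + LM and 6.87, 6.85, 6.83, 6.77 and 6.48 in Conv + OM(HFD) mice. All 5 Conv + LM mice lay above the Conv + PBS median and 4 of them above the Conv + OM(HFD) median, and the groups overlapped. The difference was 0.40 from Conv + PBS (1.32-fold, SE 0.13, unadjusted p = 0.00826 and adjusted p = 0.998 in limma, exact permutation p = 0.0173), and Conv + OM(HFD) minus Conv + LM was −0.30 (SE 0.14, unadjusted p = 0.045 and adjusted p = 0.999 in limma, exact permutation p = 0.0714). The latter missed the threshold in 8 of 16 fits with a mouse left out (−0.20 and unadjusted p = 0.141 in limma without Conv + LM mouse 15, the highest). It also missed it with the slide as a block (unadjusted p = 0.0562), with no filter (0.0563), with only the groups compared (0.055) and with Dbp as a covariate (0.0547), all in limma. Mouse 15, with the high adipocyte markers, was also the highest for Acox2. Without it, Conv + LM minus Conv + PBS was 0.39 for Acox2 and 0.30 for Hsd3b7, the lowest values with any mouse left out. Nr1i2, the gene of the xenobiotic and bile acid sensor PXR, had a difference from Conv + PBS mice of 0.24 with the obese microbiota (SE 0.11, unadjusted p = 0.045 and adjusted p = 1.0 in limma, exact permutation p = 0.0498) and of 0.22 with the lean microbiota (SE 0.11, unadjusted p = 0.0684 and adjusted p = 0.998 in limma, exact permutation p = 0.0736). The first was 0.21 (unadjusted p = 0.0904 in limma) without both mice with high neutrophil markers, and it missed the unadjusted threshold with no filter, with only the groups compared and in 9 of 16 fits with a mouse left out.

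None of the following regulators, transporters and enzymes had an unadjusted p under 0.05 in limma. Nr1h4 (FXR) had means of 6.29 in Conv + PBS, 6.32 in Conv + LM and 6.39 in Conv + OM(HFD) mice. In the same order Klb, the partner of Fgfr4, had 2.01, 1.90 and 2.02, Nr5a2 (LRH-1) 3.44, 3.38 and 3.44, and Hnf4a 8.06, 7.91 and 8.10. Abcb4, the canalicular phospholipid transporter, had 7.0, 6.83 and 6.98 and Slco1b2, an uptake carrier, 8.41, 8.26 and 8.21. Cyp2c70, which makes muricholic acid in mice, had 7.42, 7.46 and 7.28. Akr1d1, the steroid 5-beta-reductase, was 1.92, 1.86 and 1.59, and its Conv + OM(HFD) to Conv + PBS difference of −0.34 (SE 0.16) had an unadjusted p of 0.0512 and an adjusted p of 1.0 in limma and p = 0.0498 in the exact permutation test. Slc51b, the partner of Slc51a, was well above background on 10 of 16 arrays and its levels ran from −5.80 to −2.28. Its group means, −3.07, −3.76 and −3.94, rest in part on arrays where it was not well above background.

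The wide spread of Cyp7a1 and Nr0b2 within groups allowed relations between mRNA levels of the genes of the circuit to be read across mice. Bile acids, FXR activity and SHP protein were not measured on the arrays. Relations were computed on the deviations of the 16 mice from the mean of their group, with p from 100000 permutations within groups and adjustment over all 45 pairs of the 10 genes. Nr0b2 and Cyp7a1 rose and fell together, whereas SHP is known to lower Cyp7a1, and the part of feedback in this relation was not tested. The mice with the lowest Nr0b2, Conv + PBS mouse 6 (−1.16), Conv + OM(HFD) mouse 29 (−0.91) and Conv + LM mouse 17 (−0.71), had Cyp7a1 levels of 1.22, 1.78 and 2.08, each the lowest of its group. Pearson's r was 0.85 (permutation p = 0.00011, adjusted p = 0.00495) and Spearman's rho 0.91 (permutation p = 3e-05, adjusted p = 0.00135).

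Within the groups r was 0.98 in Conv + PBS (n = 6), 0.89 in Conv + LM (n = 5) and 0.78 in Conv + OM(HFD) mice (n = 5), with no test within a group. Without Conv + PBS mouse 6 and Conv + OM(HFD) mouse 29, the mice farthest from the median of Nr0b2, r was 0.73. On slide 2 it was 0.98 and on slide 1 0.43, with 8 mice each, and the difference between slides was not tested. With the slide as a block it was 0.84 (adjusted p = 0.0009 in the permutation test). Without both mice with high neutrophil markers it was 0.93.

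The relations of Nr0b2 with Abcb11, another FXR target, and with Cyp8b1 did not pass. With Abcb11, r was 0.35 and rho 0.49 (permutation p = 0.172 and 0.0734, adjusted p = 0.553 and 0.341), and with Cyp8b1, r was 0.25 and rho 0.30 (permutation p = 0.341 and 0.286, adjusted p = 0.614 and 0.647). Cyp7a1 and Cyp8b1, the paired enzymes of the classic pathway, had r of 0.14 and rho of 0.18 (permutation p = 0.65 and 0.561, adjusted p = 0.855 and 0.814). Whether these values differ from that of Nr0b2 with Cyp7a1 was not tested. Cyp8b1 ranked the mice much as Baat did, with rho of 0.80 (permutation p = 0.00135, adjusted p = 0.0304) and r of 0.67 (permutation p = 0.0165, adjusted p = 0.343), which was 0.77 on slide 1 and 0.84 on slide 2. Of the 45 pairs, 27 had a positive r, and Nr0b2 with Cyp7a1 was the single pair with an adjusted p under 0.05 for r.

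**Figure D3:**
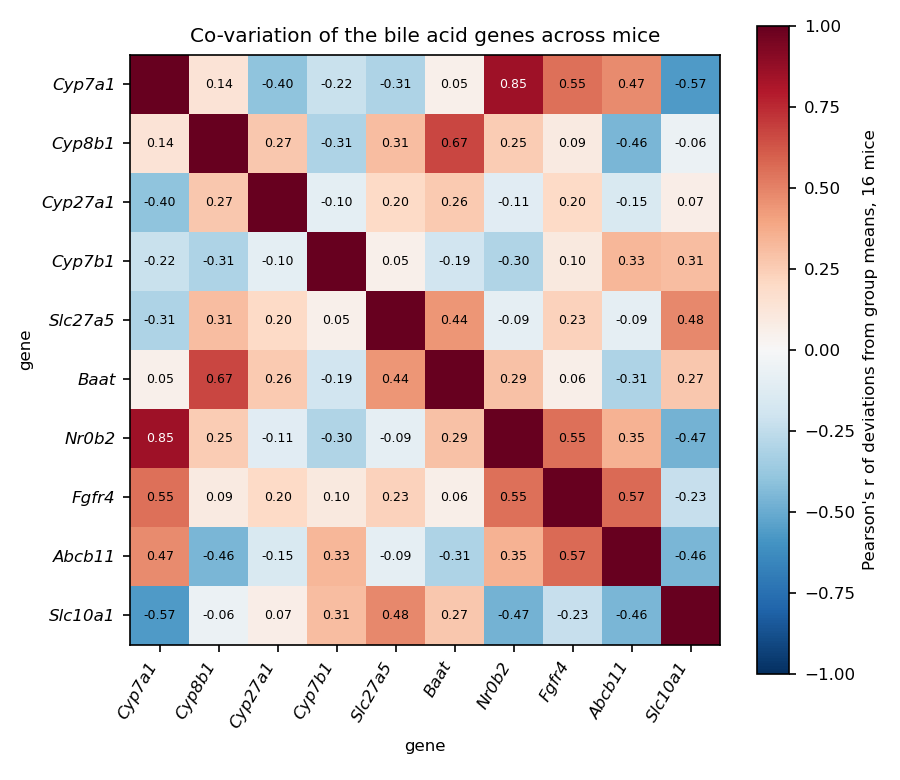
Pearson's r between the deviations of each pair of genes from group means over 16 mice (colour and printed value). Nr0b2 with Cyp7a1 (0.85) and Cyp8b1 with Baat (0.67) are the strongest positive pairs, and Cyp7a1 with Slc10a1 (−0.57) the strongest negative one.

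Cyp7a1 also followed the clock genes Dbp and Arntl, which are known to peak in opposite phases, and Nr0b2 followed Dbp. Dbp varied from 4.22 to 6.73 and Arntl from −2.73 to 0.74 over the 16 mice, without falling into separate clusters, and their r was −0.95. In the mouse with the highest Dbp of each group, Cyp7a1 was 3.76 (Conv + PBS mouse 1), 3.85 (Conv + LM mouse 13) and 4.56 (Conv + OM(HFD) mouse 25), the highest of each group. In the mouse with the lowest Dbp of each group it was 1.22, 2.08 and 2.05. Over 20 relations of the 10 genes with the pair of clock genes, Cyp7a1 had r of 0.89 and rho of 0.89 with Dbp (permutation p = 1e-05, the smallest these permutations give, and 4e-05, adjusted p = 0.0002 and 0.0008). With Arntl it had r of −0.84 and rho of −0.83 (permutation p = 4e-05 and 0.00018, adjusted p = 0.0004 and 0.0018). Within slides, r with Dbp was 0.92 and 0.91, and without the mice farthest from the median of Dbp it was 0.86.

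Nr0b2 had r of 0.70 and rho of 0.78 with Dbp (permutation p = 0.00342 and 0.00167, adjusted p = 0.0228 and 0.0111). It was 0.37 on slide 1, 0.95 on slide 2 and 0.69 without the mice farthest from the median. With Arntl, Nr0b2 had r of −0.62 and rho of −0.66 (permutation p = 0.0174 and 0.0125, adjusted p = 0.0696 and 0.0588), with r of −0.17 on slide 1 and −0.90 on slide 2. For Nr0b2 with Dbp, the adjusted p rose to 0.086 without Conv + PBS mouse 1, to 0.0836 without Conv + PBS mouse 6, to 0.0644 without Conv + LM mouse 17 and to 0.069 without both mice with high neutrophil markers, with r between 0.63 and 0.71. Abcb11 had r of 0.62 with Dbp and −0.65 with Arntl (permutation p = 0.0224 and 0.0118, adjusted p = 0.0737 and 0.059) and rho of 0.62 and −0.58 (permutation p = 0.0216 and 0.0317, adjusted p = 0.0617 and 0.0793). With the slide as a block both passed, with r of 0.68 and −0.74 (adjusted p = 0.033 and 0.0236 in the permutation test), and both also passed with normexp, quantile normalization and the authors' table. Slc10a1 had r of −0.58 and 0.58 (permutation p = 0.0295 and 0.0288, adjusted p = 0.0737 for both) and rho of −0.64 and 0.62 (permutation p = 0.0147 and 0.0197, adjusted p = 0.0588 and 0.0617). Cyp8b1 had r of −0.08 with Dbp and 0.30 with Arntl (permutation p = 0.787 and 0.295, adjusted p = 0.807 and 0.393) and rho of −0.07 and 0.22 (permutation p = 0.816 and 0.449, adjusted p = 0.816 and 0.599). The time of day of sampling was not a label, and its part in these relations was not tested.

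**Figure D4:**
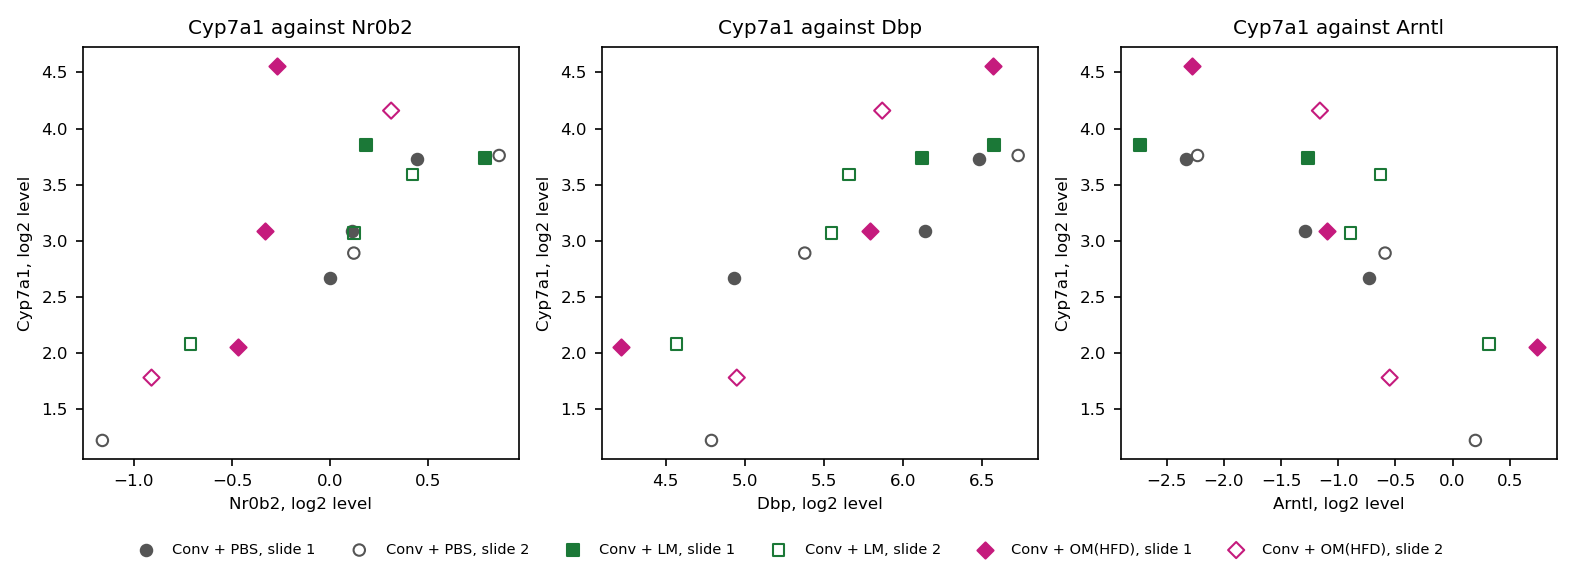
Cyp7a1 against Nr0b2, Dbp and Arntl in each mouse (log2 levels), with the group by symbol and colour and the slide by filled or open symbols. Cyp7a1 rises with Nr0b2 and Dbp and falls with Arntl in all 3 groups, with r of 0.85, 0.89 and −0.84 after removal of group means.

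Since Dbp differed between mice of a group, the groups were also compared with the Dbp level of each mouse as a covariate, a choice made after seeing the data. The SE of Cyp7a1 for Conv + OM(HFD) vs. Conv + PBS then fell from 0.55 to 0.27. The difference became 0.51 (95% interval −0.06 to 1.08, unadjusted p = 0.0772 and adjusted p = 1.0 in limma), and that of Conv + LM vs. Conv + PBS 0.42 (SE 0.26, 95% interval −0.14 to 0.98, unadjusted p = 0.132 and adjusted p = 0.894 in limma). For Nr0b2, Conv + OM(HFD) minus Conv + PBS became −0.27 (SE 0.24, unadjusted p = 0.283 in limma). After regression on Dbp, Nr0b2 and Cyp7a1 still had r of 0.68, with an adjusted p of 0.343 over the 45 pairs in the permutation test.

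Among the other bile acid pathway genes, 41 with a value on all arrays were related to Cyp7a1 and to Nr0b2 in the same way, 82 relations that were added after seeing the data. At an adjusted p under 0.05 for r, 1 gene rose and 7 fell with Cyp7a1, and 2 rose and 5 fell with Nr0b2. Many genes outside the pathway had relations of this size. An r of at least 0.7 in size was found with Cyp7a1 for 7 of the 41 (17.1%) and for 8.28% of all 20327 other genes, and with Nr0b2 for 4 of the 41 (9.76%) and for 4.04% of all genes, and no test of these shares was made. Amacr, a racemase of the side chain pathway, rose and Zfp36l1, Hnf4a, Foxa2, Acot8, Abcb4, Abcc2 and Mafg fell with Cyp7a1. Without the mice farthest from its median, r of Amacr was 0.36, where it was 0.70 with all mice, and r of Mafg was −0.29 on slide 1 and −0.93 on slide 2. Abcg8 and Akr1d1 rose and Foxa2, Acot8, Zfp36l1, Mafg and Hnf4a fell with Nr0b2, the last 5 with r from −0.82 to −0.07 on slide 1 and from −0.92 to −0.82 on slide 2. Zfp36l1, an RNA-binding protein known to destabilise the Cyp7a1 mRNA, had r of −0.91 and rho of −0.91 with Cyp7a1 (permutation p = 2e-05 and 8e-05, adjusted p = 0.00082 and 0.00656). Hnf4a, known as an activator of Cyp7a1, had r of −0.90 and rho of −0.88 (permutation p = 1e-05 and 0.00017, adjusted p = 0.00082 and 0.00697). Foxa2 had r of −0.88 and rho of −0.82 (permutation p = 0.00034 and 0.00153, adjusted p = 0.00697 and 0.0209), and Acot8, a peroxisomal thioesterase, r of −0.78 and rho of −0.81 (permutation p = 0.00032 and 0.00057, adjusted p = 0.00697 and 0.0121). These relations were also seen on each slide, with r from −0.97 to −0.79, and without the mice farthest from the median, with r from −0.88 to −0.83.

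Nr1h4 (FXR) itself had r of 0.65 and rho of 0.80 with Cyp7a1 (permutation p = 0.0153 and 0.00141, adjusted p = 0.0697 and 0.0209), with r of 0.43 on slide 1 and 0.96 on slide 2. Abcg8, a sterol exporter into bile, had r of 0.71 and rho of 0.67 with Nr0b2 (permutation p = 0.0021 and 0.00852, adjusted p = 0.0254 and 0.0466). Its adjusted p was 0.072 without Conv + PBS mouse 1 and 0.124 without Conv + LM mouse 17. Over the 17027 genes well above background on all arrays, those most like Cyp7a1 across mice were Pter (r = 0.95), Ttc7 (0.94) and Tns3 (0.94). Those most like Nr0b2 were Hoga1 (0.92), Shroom3 (0.91) and Plscr1 (0.90), and those most like Abcb11 were AK090142 (0.83), Akt2 (0.83) and Ppp1r37 (0.82). For Cyp8b1 they were an array entry with no gene symbol (0.88), Afmid (0.88) and Dchs1 (0.85). These were picked as the highest of all r and carry no test.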

How the data were processed

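The authors scanned 1-colour (Cy3) arrays with Agilent Feature Extraction 10.10.1.1, and the deposited intensity values were background-subtracted and detrended within each array, not normalized between arrays. The deposited log2 table held quantile-normalized medians of spot intensity and served as an alternative. Positions of probes were taken from the scanner files (mm9), and upstream sequences are from RefSeq tables of GRCm38.p6, in which all 10 genes matched by symbol.

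Spots of a probe were averaged without outlier spots and log2 levels were set relative to the 75th percentile within an array. The filter kept probes that at least 5 of 16 arrays showed well above background, and the brightest stood for a gene. Groups came from the labels, which number the mice with no number in more than 1 group. They were compared with limma 3.58.1 (R 4.3.3), with all 3 groups in 1 fit and Benjamini-Hochberg adjustment over 20404 genes, and with exact two-sided permutation tests, whose smallest p is 0.00216 (5 against 6 mice) or 0.00794 (5 against 5). The p-values measure the spread between these mice.

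The genes and lists were chosen with earlier results of these data known. Named in the text are the 10 genes, other pathway genes at an unadjusted p under 0.05 (1 of them is not reported here) with 10 regulators, transporters and enzymes given in any case, Arntl and Dbp, and the 3 genes most like each of Cyp7a1, Cyp8b1, Nr0b2 and Abcb11. The genes related to Cyp7a1 and Nr0b2 in the added set, and the second probes, were named after their values were seen. Alternatives were normexp (offset 50), quantile normalization, the authors' table, no filter, all arrays above background, slide as a block, array weights, fits limited to the groups compared, averaging all probes of a gene, the methods' t-test and each mouse left out. Dbp as a covariate, regression on Dbp and leaving out both mice with high neutrophil markers were added after seeing the data.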

Additional observations from a re-analysis of the deposited data

Results flagged for a closer look

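Of 30 groups of mice (10 genes in 3 groups), 2 held a mouse far from the rest, both for Cyp27a1, and chance gives about 1 in 20 groups. Cyp27a1 in Conv + PBS mouse 6 was 3.26, while the nearest of the other Conv + PBS mice had 2.77 and the lowest 2.55 (a gap of 0.69 of the range, against a critical value of 0.625). Cyp27a1 in Conv + OM(HFD) mouse 25 was 2.26, while the nearest of its group had 2.63 and the highest 2.76 (0.74 of the range, against 0.71). Mouse 6 also had the lowest Cyp7a1 and Nr0b2 of all mice, and mouse 25 the highest Cyp7a1 and high neutrophil markers. The part of these in the Cyp27a1 levels was not tested.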

How the results depend on the processing

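Of 480 differences of the 10 genes with 1 mouse left out, 452 kept their direction and side of the unadjusted threshold in limma. Of the rest, 8 newly passed and 20 turned direction. Under the other alternatives 322 of 330 kept both. These totals include fits in which the difference could not move. Such fits lacked a mouse of the group not compared, changed only the filter, or used only the groups compared. Slc27a5 for Conv + OM(HFD) vs. Conv + PBS, 0.00 after rounding, could not count as turned. No gene passed after adjustment. The number of the 10 genes at an unadjusted p under 0.05 was 1 in place of 0 for Conv + LM vs. Conv + PBS with array weights, with Dbp as a covariate and by the methods' t-test (Fgfr4), and 1 for Conv + OM(HFD) vs. Conv + LM with the slide as a block, by the methods' t-test and without both mice with high neutrophil markers (Slc10a1). Over all 3 comparisons it was 2 by the methods' t-test and 1 under the other settings just named. With 1 mouse left out it was 0 to 1 in each comparison and over all. Among the other pathway genes, 2 in place of 1 passed for Conv + OM(HFD) vs. Conv + PBS with normexp, all 16 arrays above background, slide or array weights, 0 without a filter and without both neutrophil mice, and 0 to 3 with 1 mouse left out. For Conv + OM(HFD) vs. Conv + LM it was 0 without a filter, with only the groups compared and with Dbp, and 0 to 3 with 1 mouse left out. The share of all genes called under these alternatives was not computed, so the counts of this paragraph cannot be set against it.

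Direction turned for Cyp7a1, Conv + OM(HFD) vs. Conv + LM, to 0.09 with Dbp and 0.12 with the mean of its probes, and without both neutrophil mice for Abcb11 in the same comparison (−0.04) and Baat against Conv + PBS (0.03). With 1 mouse left out, Conv + OM(HFD) vs. Conv + PBS ranged from −0.13 to 0.57 for Cyp7a1, −0.08 to 0.07 for Baat and −0.04 to 0.03 for Slc27a5. Conv + LM vs. Conv + PBS then ranged from −0.06 to 0.23 for Cyp27a1 and −0.15 to 0.32 for Nr0b2. Conv + OM(HFD) vs. Conv + LM ranged from −0.50 to 0.20 for Cyp7a1, −0.40 to 0.07 for Cyp8b1, −0.37 to 0.01 for Cyp7b1 and −0.06 to 0.12 for Abcb11. The causes were not tested.

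Across mice, r of Nr0b2 with Cyp7a1 was 0.78 to 0.93 with 1 mouse left out and 0.68 after regression on Dbp, where it no longer passed, and r of Nr0b2 with Abcb11 was then −0.16. Cyp7a1 with Cyp8b1 ranged from −0.13 (without Conv + OM(HFD) mouse 29) to 0.32. The 3 relations with Dbp or Arntl became 8 with normexp, 7 with quantile normalization and 5 with the slide, the authors' table or without removing group means, and 2 to 7 with 1 mouse left out (7 without Conv + LM mouse 14). The share of all genes related to Dbp or Arntl was not computed under any setting. With the mean of its probes, Slc10a1 had r of 0.10 with Dbp and −0.01 with Arntl, while with normexp both of its relations passed (r −0.82 and 0.78, adjusted permutation p = 0.00473 and 0.00615), and without Conv + LM mouse 17 they had r of −0.70 and 0.69 (adjusted permutation p = 0.0472 and 0.05). No paired analysis was possible because no replicate number is shared between groups. Slc51b was dim on 6 arrays, which limits its values.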
